A study of Raphanus sativus with 9 samples.

Results

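The transcriptome of radish after 4 weeks of cold (V, vernalized) was set against that of radish before vernalization (BV), across all genes. The members are the libraries that the labels call V and NV (NV is named BV here), 6 of the 9 libraries of the series. V plants of *Raphanus sativus* cv. Taebaek were 8 weeks old and had spent 28 days at 4 °C under 8 h of light per day, whereas BV plants of the same cultivar were 4 weeks old, greenhouse grown, and had received no cold. Each group has 3 biological replicates of leaf and root tissue (the extraction notes speak of whole seedlings). Stranded mRNA libraries were sequenced, and the values are raw read counts per gene. Because V plants were also older and kept in a cold room, cold, age, and light cannot be told apart in this comparison. The study's methods give no day length for the greenhouse. Leaf and root RNA were extracted together, so that a smaller share of a tissue or cell type and less RNA per cell cannot be told apart either. The genes carry RSG identifiers of the Nodai radish genome, and apart from the glucosinolate (GSLs) genes they have no names here, so that no leaf or root marker was checked and no gene positions are given.

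Vernalization is the long exposure to cold after which many plants of the Brassicaceae flower. GSLs are the sulfur-containing defence compounds of this family: aliphatic GSLs are made from methionine and indolic GSLs from tryptophan, through side-chain elongation (aliphatic only), formation of the core structure, and secondary modification of the side chain. In *Arabidopsis* the R2R3 MYB factors MYB28 and MYB29 activate the aliphatic branch, and MYB34, MYB51, and MYB122 the indolic branch. Myrosinases (the thioglucosidases TGG1 and TGG2) cleave GSLs into toxic products when tissue is damaged, and PEN2, an atypical myrosinase, and PEN3, a transporter, act in pathogen defence. These functions are known from *Arabidopsis*, and the radish genes are named after their *Arabidopsis* homologs. The exception is *RsGRS1* (glucoraphasatin synthase), which was identified and named in radish.

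The 6 libraries held 21119531 to 27606212 counts on genes, with a median of 22231771 in V and 25452551 in BV. Levels are given in CPM, read counts scaled to a common library size, with the libraries adjusted to each other by the TMM method of edgeR. A count of 3 was taken as the detection floor, equal to 0.107 to 0.148 CPM depending on the library, which allows for counting error only. Of the 64657 genes listed, 32043 had enough reads to be tested. All 3 time points were fitted together; AV (after vernalization) replicates 2 and 3 had equal counts for 98.7% of their genes and were averaged, which left 8 libraries. In log2 CPM over the 500 genes that differed most in a pair, the distance between a V and a BV library was 4.00 to 4.15, against 1.71 to 2.06 among V libraries and 1.98 to 2.39 among BV libraries. The median SD of log2 CPM per gene was 0.219 in V and 0.274 in BV (n = 3 each), and the SD was larger in V for 39.9% of the genes. V replicate 2 stood apart in composition: its 10 most abundant genes held 6.42% of its counts, against 4.64% and 4.52% in V replicates 1 and 3, and 3.24% of its aligned reads fell outside annotated genes, against 7.67% and 5.83%. Without V replicate 2, 3187 genes were called higher in V and 3390 lower by the rule given next.

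Across all genes, the numbers higher and lower in V were close to each other. A gene was said to pass when its adjusted p, from the quasi-likelihood test of edgeR and adjusted by Benjamini-Hochberg across the 32043 genes, was under 0.05. In V, 6159 genes (19.2%) were higher and 6189 genes (19.3%) lower than in BV. A gene was called when its log2 fold change was also at least 1 in size, which left 3283 genes (10.2%) higher and 3481 genes (10.9%) lower. The median log2 fold change of all genes was 0.01, the middle 50% of the genes lay between -0.47 and 0.49, and 5% lay below -1.77 and 5% above 1.61. TMM assumes that most genes do not differ between libraries. The balance of higher and lower genes is therefore partly set by it, and a shift shared by most genes would not show. Of the 32043 genes, 8052 were higher and 7670 lower in V without overlap between the V and BV libraries.

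**Figure D1:**
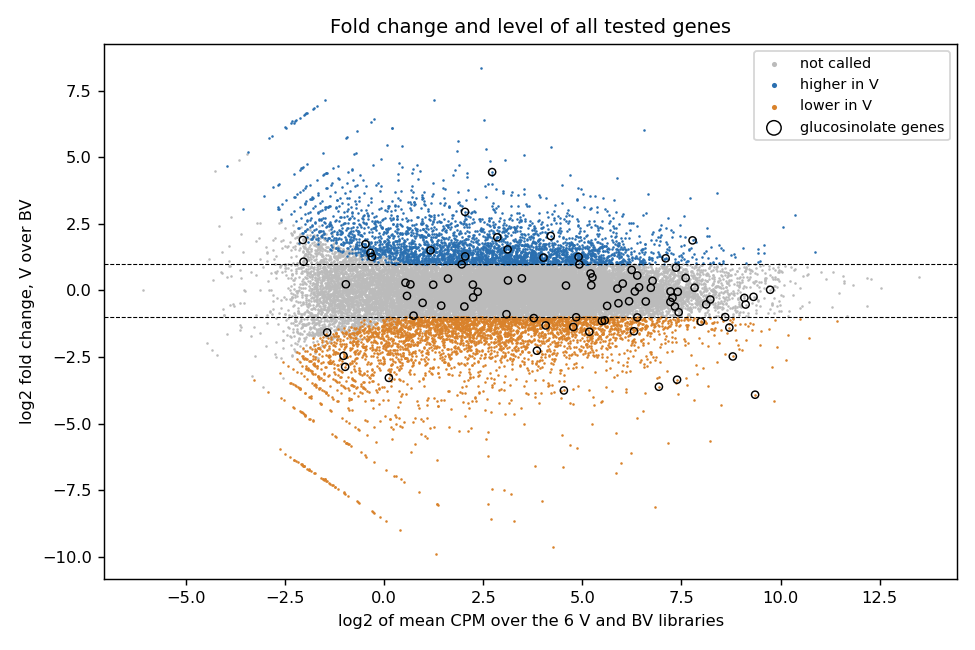
Fitted log2 fold change, V over BV (vertical axis), against the log2 of the mean CPM over the 6 V and BV libraries (horizontal axis) for every gene tested. Blue and orange points are the 3283 genes called higher and the 3481 called lower in V, grey points the others, black circles the glucosinolate genes, and dashed lines mark a log2 fold change of 1 in size; the straight streaks at low CPM are genes with few or no counts in one of the groups.

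Among large differences, lower genes outnumbered higher ones. Among the 29729 genes above the floor in all 6 libraries, 575 were at least 4-fold higher and 669 at least 4-fold lower in V, by the fitted fold change. At least 8-fold, 87 genes were higher and 154 lower, and at least 16-fold, 12 were higher and 49 lower.

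The share of genes called depended on their level. With a mean of 1 to 3 CPM, 15.6% of 4518 genes were called higher and 15.9% lower, whereas with a mean of 10 to 30 CPM, 8.15% of 8491 genes were called higher and 7.34% lower. Among the 1854 genes at 100 CPM or more, 6.15% were called higher and 10.3% lower. The share that passed without a minimum fold change went the other way, with 27.9% of the genes under 1 CPM and 50.5% of those at 100 CPM or more. The median standard error of the log2 fold change was 0.60 under 1 CPM and 0.17 at 100 CPM or more, so that a difference of a given size was harder to detect in rare transcripts.

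**Figure D2:**
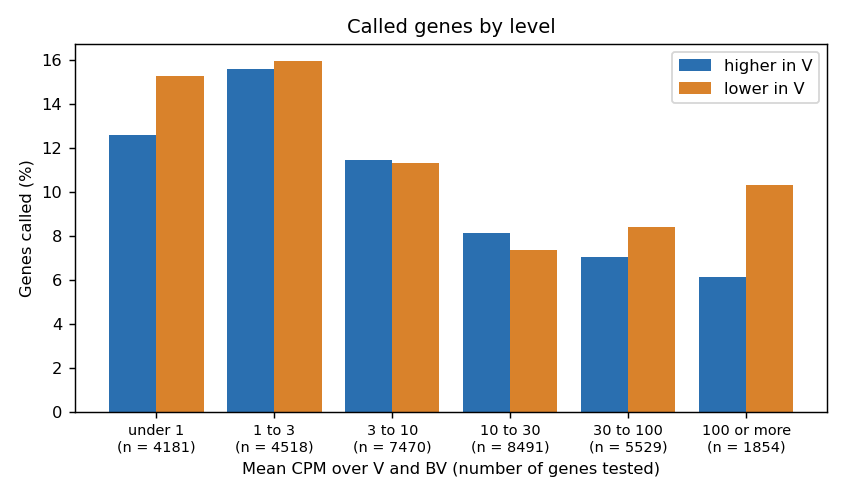
Percentage of genes called higher (blue) and lower (orange) in V than in BV, by class of mean CPM over the 6 libraries, with the number of genes tested in each class. The bars are highest at 1 to 3 CPM (15.6% and 15.9%), and at 100 CPM or more the bar for genes lower in V (10.3%) is taller than that for genes higher in V (6.15%).

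Few genes were detected in a single group. Above the floor in every V library and at or below it in every BV library were 214 genes, with a median of 0.406 CPM and a highest mean of 10.8 CPM in V. The reverse, present in BV and at or below the floor in V, was seen for 381 genes, with a median of 0.476 CPM and a highest mean of 38.2 CPM in BV. Of the 214 genes 114 were called higher in V, and of the 381 genes 225 were called lower. The floor was a fixed count, not adjusted for depth. Depth was 27606212, 21119531, and 22231771 counts on genes in V, against 26021344, 21220739, and 25452551 in BV. The groups thus overlapped in depth, and the part of depth in these numbers was not tested. With more than 10 counts asked for in each library where the gene was present, 44 and 124 genes were left. The only GSLs gene among the 214 and 381 genes was *RsCYP79A2a*, with 11, 10, and 6 counts in V, against 2, 2, and 3 counts in BV. It was at least 2.70-fold higher in V, computed against the floor in CPM, and did not pass (edgeR adjusted p = 0.0524).

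The genes called in either direction differed in how much of the read pool they held. Genes called higher held 10.2%, 9.71%, and 10.3% of the counts in V, against 3.50%, 3.30%, and 3.39% in BV. Genes called lower held 4.86%, 4.41%, and 4.97% in V, against 14.4%, 14.7%, and 13.5% in BV. These shares describe the genes that the comparison chose, and they are no separate test. The 100 most abundant genes of each library held 16.1 ± 1.19% of its counts in V and 14.9 ± 0.194% in BV (SD, n = 3 each). The V libraries (15.3% to 17.5%) lay above the BV libraries (14.7% to 15.0%), with p = 0.1 in a two-sided exact permutation test, the smallest p that 3 against 3 libraries allow. The difference of 1.24 percentage points was 0.560 without V replicate 2, a value computed after the data were seen. For the 10 most abundant genes (5.19 ± 1.06% in V and 4.59 ± 0.342% in BV, p = 0.6) and for the 1000 most abundant (41.5 ± 1.29% in V and 41.1 ± 0.548% in BV, p = 0.9), the groups overlapped in the same exact permutation test.

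The genes without a name that gained or lost most in mean CPM, among called genes whose libraries did not overlap, were as follows. RSG40919 was at 2321, 2182, and 2453 CPM in V, against 328, 281, and 371 CPM in BV (log2 fold change 2.83, standard error (SE) 0.18, edgeR adjusted p = 1.42e-08). RSG32911 was at 2536, 3260, and 2450 CPM in V, against 1183, 1155, and 653 CPM in BV (log2 fold change 1.46, SE 0.22, edgeR adjusted p = 7.84e-05). For RSG40919 the libraries of each group lay close together, whereas for RSG32911 BV replicate 3 lay well under the other BV libraries. RSG15635 was at 830, 650, and 803 CPM in V, against 2512, 3506, and 1881 CPM in BV (log2 fold change -1.79, SE 0.22, edgeR adjusted p = 1.41e-05). RSG30421 was at 1809, 1519, and 1818 CPM in V, against 3910, 3836, and 3550 CPM in BV (log2 fold change -1.13, SE 0.16, edgeR adjusted p = 4.3e-05). What these 4 genes encode is not known from the sources used here.

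The GSLs genes analysed here were 94 RSG identifiers under 93 names, because *RsTGG2a* is given to a pair of identifiers, and 87 of them were tested. The other 7, *RsSOT18e*, *RsSOT18g*, *RsSOT18h*, *RsFMOGS-OX5-2*, *RsBZO1*, *RsCYP79A2b*, and *RsCYP79A2c*, had too few reads. Of the 87 genes, 21 (24.1%) were higher and 28 (32.2%) lower in V, beside 19.2% and 19.3% of all genes. Their median log2 fold change was -0.05, beside 0.01 for all genes. With a log2 fold change of at least 1 in size, 14 of the 87 were higher and 20 lower, beside 10.2% and 10.9% of all genes. By step, the aliphatic transcription factors (4 of 5 higher) and *RsPEN2* with the *RsPEN3* genes (3 of 4 higher) held no gene that was lower, whereas 9 of 19 aliphatic core genes and 8 of 11 myrosinases were lower in V. Steps of 4 to 19 genes give coarse shares, and none was tested against the other genes. HTSeq-count drops reads with several alignments, which makes the values of single homologs uncertain where copies are near-identical.

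**Figure D3:**
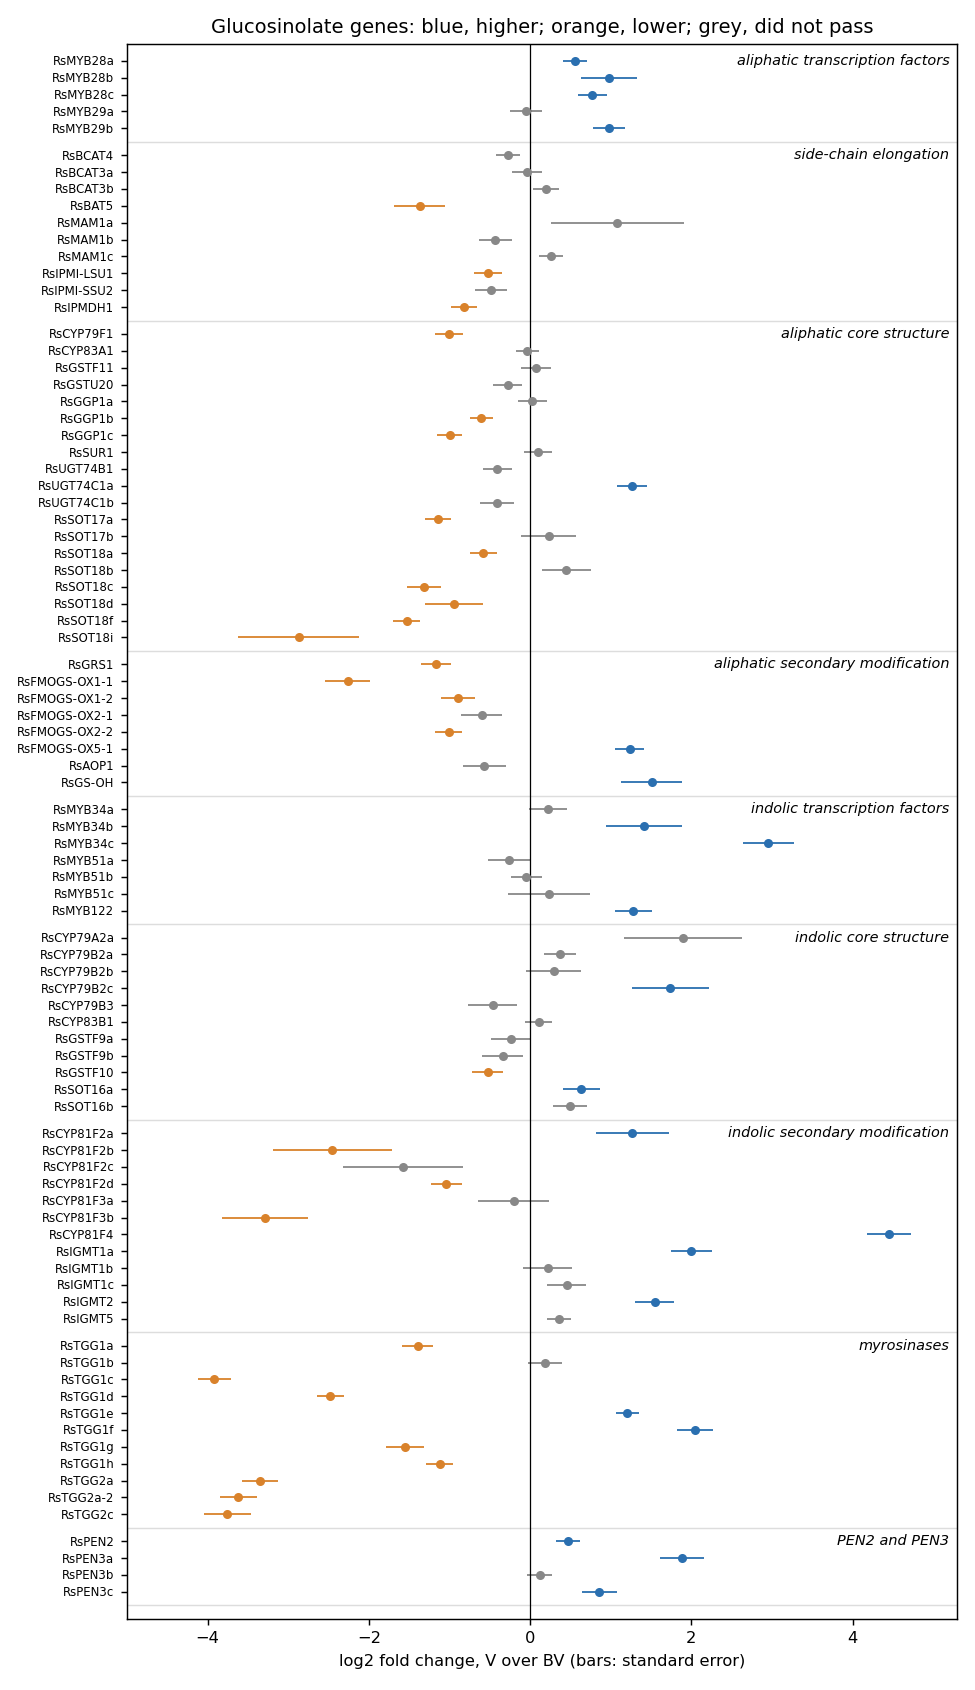
Log2 fold change, V over BV (horizontal axis, bars are standard errors), for the 87 tested glucosinolate genes, grouped by step. Blue genes were higher (21), orange genes lower (28), and grey genes did not pass; the myrosinases reach down to -3.92 and the indolic secondary modification genes up to 4.45.

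Of the 5 aliphatic transcription factor genes, 4 were higher in V and none lower (80% and 0%, beside 19.2% and 19.3% of all genes), with a median log2 fold change of 0.77, and none of the 4 reached 1. *RsMYB29b* was at 39.1, 44.4, and 37.4 CPM in V, against 23.2, 19.9, and 18.3 CPM in BV (log2 fold change 0.98, SE 0.19, edgeR adjusted p = 0.000851). *RsMYB28c* was at 89.5, 112, and 85.2 CPM in V, against 65.5, 54.5, and 48.0 CPM in BV (0.77, SE 0.18, edgeR adjusted p = 0.00328). *RsMYB28a* was at 98.9, 107, and 92.8 CPM in V, against 69.8, 72.8, and 60.0 CPM in BV (0.56, SE 0.15, edgeR adjusted p = 0.00723). For these 3 genes and for *RsMYB28b*, every V library was above every BV library. The same held for 8052 of all 32043 genes tested. *RsMYB28b* had 4.83, 6.69, and 3.93 CPM in V, against 3.22, 3.41, and 1.19 CPM in BV (0.98, SE 0.34, edgeR adjusted p = 0.0341), and it did not pass without V replicate 1, V replicate 2, or BV replicate 3 (edgeR adjusted p from 0.0556 to 0.132, with a log2 fold change of 0.63 without BV replicate 3). *RsMYB29a* had 152, 192, and 156 CPM in V, against 199, 203, and 116 CPM in BV. Its groups overlapped (log2 fold change -0.05, SE 0.20, edgeR adjusted p = 0.868), and the sign turned when single libraries were left out (0.082 without BV replicate 2). In all 5 genes V replicate 2 was the highest of its group and BV replicate 3 the lowest.

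Side-chain elongation lengthens methionine before the core structure is built, and it had 3 lower and no higher genes among 10 (30% and 0%, beside 19.3% and 19.2% of all genes), with a median log2 fold change of -0.35. *RsIPMDH1*, a dehydrogenase of this cycle, was at 117, 144, and 113 CPM in V, against 213, 257, and 190 CPM in BV (log2 fold change -0.82, SE 0.16, edgeR adjusted p = 0.000987). *RsBAT5*, the chloroplast carrier for its intermediates, was at 15.3, 15.4, and 15.0 CPM in V, against 40.8, 60.9, and 16.5 CPM in BV (-1.37, SE 0.32, edgeR adjusted p = 0.00275). The V libraries were nearly equal for *RsBAT5*, while BV replicate 3 lay just above them and far below the other BV libraries. *RsIPMI-LSU1*, the large subunit of the isomerase, also passed (-0.52, edgeR adjusted p = 0.0237), but not without V replicate 1, V replicate 3, or BV replicate 2 (edgeR adjusted p from 0.0889 to 0.111). The highest log2 fold change was that of *RsMAM1a* (1.08, SE 0.83, edgeR adjusted p = 0.327), which had 0.286, 0.639, and 0.0882 CPM in V, against 0.315, 0.0947, and 0.041 CPM in BV, partly under the floor. Without V replicate 2, which had the highest V level in 9 of the 10 genes, 5 genes were lower.

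In the aliphatic core structure, where aldoximes are made and turned into GSLs by conjugation, cleavage, glucosylation, and sulfation, 9 of 19 tested genes were lower and 1 was higher (47.4% and 5.26%, beside 19.3% and 19.2% of all genes), with a median log2 fold change of -0.41. The entry enzyme *RsCYP79F1* was at 56.9, 49.5, and 60.1 CPM in V, against 104, 138, and 93.7 CPM in BV (log2 fold change -1.01, SE 0.17, edgeR adjusted p = 0.000255). *RsCYP83A1*, the next enzyme, did not pass (-0.04, SE 0.15, edgeR adjusted p = 0.872). At the intermediate steps *RsGGP1c* (-0.999, SE 0.16, edgeR adjusted p = 0.000112) and *RsGGP1b* (-0.60, SE 0.14, edgeR adjusted p = 0.00306) were lower, while *RsGGP1a*, *RsGSTF11*, *RsGSTU20*, *RsSUR1*, and *RsUGT74B1* did not pass, with log2 fold changes from -0.41 to 0.10. The lower genes thus included the entry enzyme and 2 of the 3 *RsGGP1* copies, but not the genes that lie between them. *RsGGP1a*, which did not pass, had the highest mean level of the 3 copies, at 861 CPM in V and 846 CPM in BV. The mean was 260 CPM in V and 519 CPM in BV for *RsGGP1c*, and 128 and 195 CPM for *RsGGP1b*.

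The sulfotransferases, which add the last group of the core, held 6 of the 9 lower genes of this step. *RsSOT18f* was at 41.8, 39.9, and 39.9 CPM in V, against 100, 137, and 115 CPM in BV (log2 fold change -1.53, SE 0.16, edgeR adjusted p = 2.65e-06). *RsSOT17a* was at 28.4, 24.3, and 31.2 CPM in V, against 56.0, 71.1, and 59.1 CPM in BV (-1.15, SE 0.16, edgeR adjusted p = 4.76e-05). *RsSOT18c* was at 8.58, 10.1, and 10.3 CPM in V, against 23.9, 23.4, and 24.7 CPM in BV (-1.31, SE 0.21, edgeR adjusted p = 0.000156). The groups were far apart for these 3 genes. *RsSOT18i* had 0, 0.246, and 0.132 CPM in V, against 0.826, 1.09, and 0.737 CPM in BV (-2.87, SE 0.75, edgeR adjusted p = 0.00733). Its counts in V were 0, 5, and 3, so that V replicates 1 and 3 were at or under the floor, and its log2 fold change was -2.20 without V replicate 1 and -3.76 without V replicate 2. *RsSOT18a* (-0.58, edgeR adjusted p = 0.0119) did not pass without V replicate 1, V replicate 3, or BV replicate 1 (edgeR adjusted p from 0.0505 to 0.0636), and *RsSOT18d* (-0.95, edgeR adjusted p = 0.046) did not pass in 5 of the 6 fits that left out a library, all but that without BV replicate 3 (0.0501 to 0.139). Summed over the *RsSOT18* genes, the level was 91.3, 101, and 91.5 CPM in V, against 193, 232, and 194 CPM in BV.

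The single core gene that was higher, *RsUGT74C1a*, encodes a glucosyltransferase. It was at 37.3, 51.7, and 37.9 CPM in V, against 16.9, 18.2, and 17.7 CPM in BV (log2 fold change 1.26, SE 0.18, edgeR adjusted p = 5.93e-05). Its homolog *RsUGT74C1b* was at 66.7, 105, and 77.9 CPM in V, against 123, 131, and 78.2 CPM in BV. It did not pass (-0.41, SE 0.21, edgeR adjusted p = 0.137), although it passed as lower without V replicate 2 (edgeR adjusted p = 0.0375) or without BV replicate 3 (edgeR adjusted p = 0.0168). The ratio of *RsUGT74C1a* to *RsUGT74C1b* CPM, which is not corrected for gene length, was 0.559, 0.493, and 0.486 in V, against 0.137, 0.139, and 0.227 in BV.

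Among the 8 tested genes of aliphatic secondary modification, 4 were lower and 2 higher in V (50% and 25%, beside 19.3% and 19.2% of all genes), with a median log2 fold change of -0.75. *RsGRS1* encodes glucoraphasatin synthase, the dioxygenase that makes glucoraphasatin, the main GSL of radish, from glucoerucin. It was at 147, 180, and 141 CPM in V, against 378, 422, and 256 CPM in BV, so that the highest V library lay below the lowest BV library (log2 fold change -1.17, SE 0.19, edgeR adjusted p = 0.000149). The study's RT-qPCR primers for this transcript are shown because they are the sequence by which it was followed outside these libraries; they are given 5′ to 3′ in lower case, and their match to RSG02297, the identifier of *RsGRS1*, was not tested.
RsGRS1_F: gttcctcctgtccctggatg
RsGRS1_R: atgcgctagcaccctatgct

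The flavin monooxygenases FMOGS-OX oxidize the side-chain sulfur of aliphatic GSLs, and the radish homologs differed in direction. *RsFMOGS-OX1-1* was at 5.11, 3.34, and 6.44 CPM in V, against 22.3, 21.6, and 28.0 CPM in BV (log2 fold change -2.26, SE 0.28, edgeR adjusted p = 1.07e-05). *RsFMOGS-OX2-2* was at 20.9, 15.9, and 20.4 CPM in V, against 34.6, 43.1, and 37.4 CPM in BV (-1.01, SE 0.17, edgeR adjusted p = 0.000209). *RsFMOGS-OX1-2* was at 6.65, 4.43, and 6.71 CPM in V, against 9.75, 11.3, and 12.1 CPM in BV (-0.89, SE 0.21, edgeR adjusted p = 0.00299). These 3 genes fell in V without overlap of the libraries. *RsFMOGS-OX2-1* had 4.47, 2.51, and 2.65 CPM in V, against 4.4, 5.02, and 5.32 CPM in BV, and its libraries overlapped (-0.60, SE 0.26, edgeR adjusted p = 0.0771). *RsFMOGS-OX5-1* rose, with 21.7, 23.5, and 23.2 CPM in V, against 11.1, 7.72, and 10.2 CPM in BV (1.23, SE 0.18, edgeR adjusted p = 6.42e-05). *RsGS-OH*, named after an *Arabidopsis* dioxygenase that hydroxylates alkenyl GSLs, had 3.07, 1.82, and 5.07 CPM in V, against 0.983, 1.56, and 0.983 CPM in BV (1.51, SE 0.38, edgeR adjusted p = 0.00516). It did not pass without V replicate 3 (edgeR adjusted p = 0.0558), which left 1 gene higher in this step.

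Of the 7 indolic transcription factor genes, 3 were higher and none lower (42.9% and 0%, beside 19.2% and 19.3% of all genes), with a median log2 fold change of 0.23. *RsMYB34c* was at 9.15, 4.67, and 8.03 CPM in V, against 1.06, 0.758, and 0.983 CPM in BV (log2 fold change 2.95, SE 0.31, edgeR adjusted p = 2.77e-06). *RsMYB122* was at 5.54, 6.0, and 6.0 CPM in V, against 2.75, 1.85, and 2.58 CPM in BV (1.28, SE 0.23, edgeR adjusted p = 0.000455). *RsMYB34b* had 1.04, 0.983, and 1.41 CPM in V, against 0.393, 0.568, and 0.328 CPM in BV (1.41, SE 0.47, edgeR adjusted p = 0.0268). *RsMYB34b* did not pass without V replicate 1, V replicate 3, BV replicate 1, or BV replicate 3 (edgeR adjusted p from 0.0566 to 0.110). The other four did not pass, and their V and BV libraries overlapped. *RsMYB34a* had 4.43, 4.47, and 6.31 CPM in V, against 4.56, 5.02, and 3.48 CPM in BV (0.22, SE 0.23, edgeR adjusted p = 0.484). *RsMYB51a* had 5.08, 2.7, and 5.12 CPM in V, against 5.03, 4.17, and 6.31 CPM in BV (-0.26, SE 0.26, edgeR adjusted p = 0.454). *RsMYB51b* had 5.04, 4.77, and 5.34 CPM in V, against 5.54, 5.59, and 4.55 CPM in BV (-0.05, SE 0.19, edgeR adjusted p = 0.867). None of the MYB51 homologs passed in either direction. *RsMYB51c* had 0.5, 0.492, and 0.662 CPM in V, against 0.354, 0.568, and 0.491 CPM in BV (0.23, SE 0.51, edgeR adjusted p = 0.755). The ratio of *RsMYB34c* to *RsMYB34a* CPM was 2.06, 1.04, and 1.27 in V, against 0.233, 0.151, and 0.282 in BV.

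The indolic core structure, built from tryptophan through CYP79B2, CYP79B3, and CYP83B1, had 2 higher genes and 1 lower among 11 (18.2% and 9.09%, beside 19.2% and 19.3% of all genes), with a median log2 fold change of 0.29. These 11 include *RsCYP79A2a*, a homolog of *CYP79A2*, which is not among the tryptophan enzymes just named. It had the largest log2 fold change of the step and did not pass (1.90, SE 0.74, edgeR adjusted p = 0.0524). *RsCYP79B2c*, 1 of the 3 copies of the entry enzyme, was at 1.04, 1.23, and 1.06 CPM in V, against 0.275, 0.474, and 0.246 CPM in BV (log2 fold change 1.74, SE 0.48, edgeR adjusted p = 0.00887). *RsCYP83B1* was at 258, 197, and 252 CPM in V, against 209, 189, and 261 CPM in BV, and its groups overlapped (0.10, SE 0.17, edgeR adjusted p = 0.663). The sulfotransferase gene *RsSOT16a* had 47.5, 34.4, and 53.1 CPM in V, against 28.4, 18.8, and 39.6 CPM in BV (0.64, SE 0.23, edgeR adjusted p = 0.0404). The glutathione transferase gene *RsGSTF10* had 378, 572, and 416 CPM in V, against 532, 689, and 751 CPM in BV (-0.53, SE 0.19, edgeR adjusted p = 0.0397). Both passed although their V and BV libraries overlapped, and each did not pass in 4 of the 6 fits that left out a library: *RsSOT16a* in all but those without V replicate 2 or BV replicate 3 (edgeR adjusted p from 0.0999 to 0.154, with a log2 fold change of 0.40 without BV replicate 2), and *RsGSTF10* in all but those without V replicate 2 or BV replicate 1 (0.0702 to 0.179). Over these fits 1 to 2 core genes were higher and 0 to 3 lower, so that this step gave no stable count.

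Indolic secondary modification had both large rises and large falls, with 4 of 12 genes higher and 3 lower in V (33.3% and 25%, beside 19.2% and 19.3% of all genes) and a median log2 fold change of 0.29. *RsCYP81F4*, a cytochrome P450 that in *Arabidopsis* hydroxylates the indole ring, was at 12.9, 11.1, and 13.9 CPM in V, against 0.629, 0.332, and 0.737 CPM in BV. The fitted fold change, V over BV, was 21.8 (log2 fold change 4.45, SE 0.28, edgeR adjusted p = 1.25e-08). The methyltransferases that follow such P450 enzymes were higher in part. *RsIGMT1a* was at 10.5, 13.5, and 10.7 CPM in V, against 1.73, 3.32, and 3.64 CPM in BV (2.00, SE 0.26, edgeR adjusted p = 1.77e-05). *RsIGMT2* was at 10.4, 15.1, and 13.2 CPM in V, against 3.62, 5.31, and 4.34 CPM in BV (1.54, SE 0.24, edgeR adjusted p = 0.0001). *RsIGMT1b*, *RsIGMT1c*, and *RsIGMT5* did not pass, with log2 fold changes of 0.22, 0.45, and 0.36.

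Other P450 copies of the same step went the other way. *RsCYP81F3b* was at 0.214, 0.344, and 0.0441 CPM in V, against 2.04, 1.28, and 2.58 CPM in BV (log2 fold change -3.28, SE 0.53, edgeR adjusted p = 0.000164), and V replicate 3 lay under the floor. *RsCYP81F2d* was at 8.33, 8.06, and 10.5 CPM in V, against 17.1, 16.3, and 21.8 CPM in BV (-1.04, SE 0.20, edgeR adjusted p = 0.000579). *RsCYP81F2b* had 0, 0.295, and 0.176 CPM in V, against 0.550, 0.900, and 1.02 CPM in BV (-2.46, SE 0.74, edgeR adjusted p = 0.0155), and it did not pass without V replicate 1 (log2 fold change -1.79, edgeR adjusted p = 0.0609). Its log2 fold change was -3.27 without V replicate 2. Its homolog *RsCYP81F2a* was higher in V (1.27, SE 0.45, edgeR adjusted p = 0.0371), with all V libraries above all BV libraries, but it did not pass without V replicate 2, BV replicate 1, or BV replicate 2 (edgeR adjusted p from 0.0559 to 0.184, with a log2 fold change of 0.82 without V replicate 2). *RsCYP81F2c* (-1.58, SE 0.75, edgeR adjusted p = 0.108) and *RsCYP81F3a* (-0.20, SE 0.44, edgeR adjusted p = 0.749) did not pass.

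**Figure D4:**
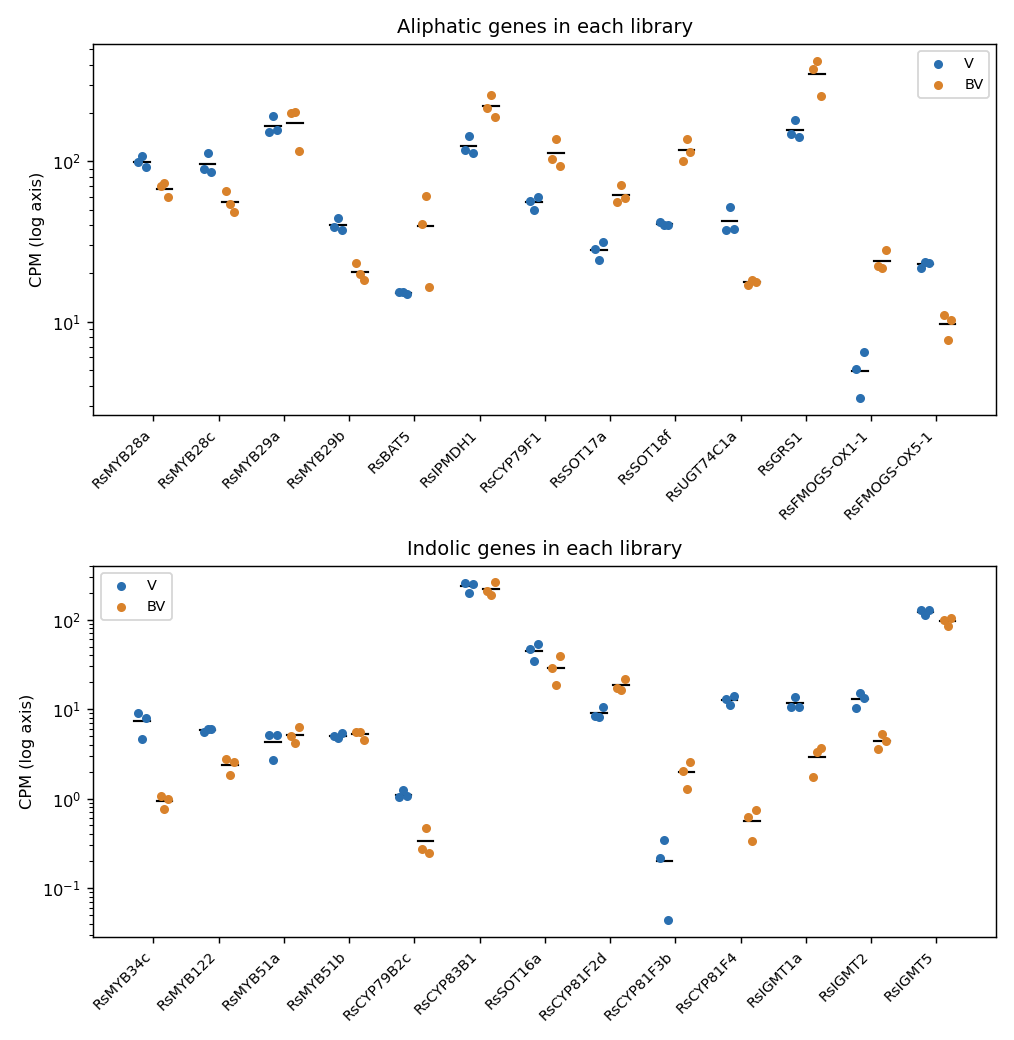
CPM (log axis) of aliphatic genes (upper panel) and indolic genes (lower panel) in each V library (blue, left) and BV library (orange, right), with black lines at the means. *RsCYP81F4* lies at 11.1 to 13.9 CPM in V and at 0.332 to 0.737 CPM in BV, *RsGRS1* at 141 to 180 CPM in V and at 256 to 422 CPM in BV, and the groups overlap for *RsMYB29a*, *RsMYB51a*, *RsMYB51b*, *RsCYP83B1*, and *RsSOT16a*.

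The myrosinases showed the deepest falls of the pathway. Of 11 genes, 8 were lower and 2 higher in V (72.7% and 18.2%, beside 19.3% and 19.2% of all genes), with a median log2 fold change of -1.55. Each of these 10 had a log2 fold change above 1 in size and no overlap between the groups. Lack of overlap was common, with 8052 genes higher and 7670 lower without overlap among the 32043 genes tested. The summed level of the 11 myrosinase genes was 753, 870, and 759 CPM in V, against 3481, 3938, and 2774 CPM in BV, that is 794 ± 65.9 CPM in V and 3397 ± 587 CPM in BV (SD, n = 3 each), 4.28-fold lower in V. The 3 *RsTGG2* genes together had 49.1, 62.9, and 42.5 CPM in V, against 647, 658, and 418 CPM in BV, 11.2-fold lower in V. The 8 *RsTGG1* genes together had 704, 807, and 716 CPM in V, against 2834, 3279, and 2356 CPM in BV, 3.8-fold lower in V. The counts of 8 lower and 2 higher genes stayed the same when any of the 6 libraries was left out.

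*RsTGG1c* fell most, to 80.4, 90.5, and 73.6 CPM in V, against 1204, 1537, and 953 CPM in BV (log2 fold change -3.92, SE 0.20, edgeR adjusted p = 2.17e-09). *RsTGG2c* was at 2.82, 4.72, and 2.07 CPM in V, against 47.4, 51.2, and 30.7 CPM in BV (-3.76, SE 0.29, edgeR adjusted p = 1.07e-07). *RsTGG2a-2* (RSG30298, which the study also calls *RsTGG2a*) was at 17.6, 20.0, and 17.6 CPM in V, against 270, 259, and 147 CPM in BV (-3.62, SE 0.23, edgeR adjusted p = 1.68e-08). *RsTGG2a* (RSG30297) was at 28.7, 38.2, and 22.8 CPM in V, against 329, 348, and 240 CPM in BV (-3.35, SE 0.22, edgeR adjusted p = 2.13e-08). In all of these the lowest BV library was several times the highest V library. *RsTGG1d* was at 117, 161, and 127 CPM in V, against 701, 773, and 788 CPM in BV (-2.48, SE 0.17, edgeR adjusted p = 2.92e-08). *RsTGG1g*, *RsTGG1a*, and *RsTGG1h* were lower by log2 fold changes of -1.55, -1.40, and -1.12 (edgeR adjusted p from 4.12e-05 to 8.44e-05).

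The higher copies were *RsTGG1e* and *RsTGG1f*. *RsTGG1f* was at 28.7, 32.1, and 28.1 CPM in V, against 8.96, 7.96, and 4.59 CPM in BV (log2 fold change 2.05, SE 0.23, edgeR adjusted p = 4.12e-06). *RsTGG1e* was at 183, 200, and 192 CPM in V, against 78.8, 82.2, and 88.1 CPM in BV (1.21, SE 0.14, edgeR adjusted p = 8.53e-06). *RsTGG1b* did not pass, with 24.3, 27.5, and 24.9 CPM in V, against 24.7, 26.1, and 16.7 CPM in BV (0.18, SE 0.21, edgeR adjusted p = 0.529). The make-up of the myrosinase reads therefore also differed between the groups. *RsTGG1c* held 10.3 ± 0.506% of them in V and 36.0 ± 2.64% in BV, and *RsTGG1e* 24.2 ± 1.17% in V and 2.51 ± 0.584% in BV (SD, n = 3 each, not corrected for gene length). The ratio of *RsTGG1e* to *RsTGG1c* CPM was 2.27, 2.21, and 2.61 in V, against 0.0655, 0.0535, and 0.0924 in BV, and it was chosen after its values were seen.

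*RsPEN2* and the 3 *RsPEN3* genes had 3 higher members and none lower (75% and 0%, beside 19.2% and 19.3% of all genes), with a median log2 fold change of 0.66. *RsPEN3a* was at 381, 308, and 349 CPM in V, against 107, 48.9, and 125 CPM in BV (log2 fold change 1.88, SE 0.28, edgeR adjusted p = 6.31e-05). *RsPEN3c* also rose (0.86, SE 0.22, edgeR adjusted p = 0.00515), and *RsPEN3b* did not pass (0.12, SE 0.16, edgeR adjusted p = 0.574). The ratio of *RsPEN3a* to *RsPEN3b* CPM was 4.03, 3.65, and 3.85 in V, against 1.26, 0.673, and 1.38 in BV. *RsPEN2* was at 208, 247, and 224 CPM in V, against 156, 154, and 181 CPM in BV (0.47, SE 0.15, edgeR adjusted p = 0.0213). Without V replicate 3, BV replicate 1, or BV replicate 2 *RsPEN2* did not pass (edgeR adjusted p from 0.0513 to 0.0865).

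**Figure D5:**
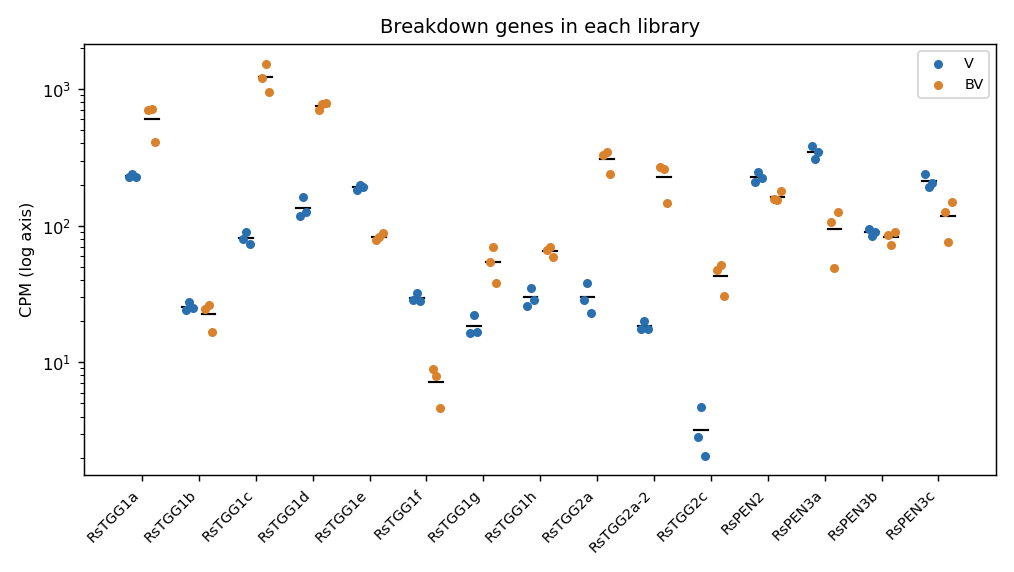
CPM (log axis) of the 11 myrosinase genes and of *RsPEN2* and *RsPEN3* genes in each V library (blue, left) and BV library (orange, right), with black lines at the means. V lies below BV for 8 myrosinase genes, most deeply for *RsTGG1c* (73.6 to 90.5 CPM in V, 953 to 1537 CPM in BV), above BV for *RsTGG1e* and *RsTGG1f*, and the groups overlap for *RsTGG1b* and *RsPEN3b*.

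The radish genes were also counted by *Arabidopsis* homolog. Of 21 *Arabidopsis* genes with at least 2 tested radish homologs, 2 had homologs that passed in both directions: *TGG1* (2 higher, 5 lower) and *CYP81F2* (1 higher, 2 lower). In 3 families all homologs passed one way, *MYB28* upward and *FMOGS-OX1* and *TGG2* downward. In 4 families, *BCAT3*, *MAM1*, *MYB51*, and *GSTF9*, no homolog passed. In the other families some homologs passed in 1 direction and the rest did not pass, and differences in size between homologs were not tested.

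The libraries of a group also differed among themselves in the pathway. V replicate 2 was the highest of its group in 50 of the 87 genes, including all 11 myrosinases. BV replicate 2 was the highest of its group in 40 of the 87 genes. BV replicate 3 was the lowest of its group in 38 of the 87 genes, including 9 of the 11 myrosinases. Such counts, here and by step, were not made over all genes. Whether they are particular to the pathway is therefore not known. The part of V replicate 2 and BV replicate 3 in the results other than by leaving them out was not tested. Without V replicate 2, 21 pathway genes were higher and 32 lower, and without BV replicate 3, 21 were higher and 29 lower.

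After a further 2 weeks in the greenhouse (AV, plants 10 weeks old, n = 2), 4709 genes (14.7%) were higher and 5408 genes (16.9%) lower than in V by the same test. AV shares the V libraries with the comparison above, so its values are given only for a few of the genes. *RsTGG1c* was at 94.6 and 96.4 CPM in AV, against 81.5 ± 8.52 CPM in V (SD, n = 3), and did not pass (log2 fold change 0.23, SE 0.20, edgeR adjusted p = 0.419). *RsTGG2a* was at 26.6 and 33.6 CPM in AV, against 29.9 ± 7.77 CPM in V (0.01, SE 0.23, edgeR adjusted p = 0.979). These 2 genes thus stood in AV near the level of V. Not all myrosinase genes that were lower in V than in BV did so. *RsTGG1a* (-1.58), *RsTGG1g* (-1.47), and *RsTGG2c* (-1.58) were lower again in AV than in V (edgeR adjusted p from 7e-05 to 0.00452). *RsTGG1d*, *RsTGG1h*, and *RsTGG2a-2* did not pass between AV and V. *RsTGG1e* was at 26.2 and 26.5 CPM in AV, against 192 ± 8.63 CPM in V (-2.86, SE 0.18, edgeR adjusted p = 1.95e-08). *RsGRS1* was at 55.7 and 52.8 CPM in AV, against 156 ± 21.0 CPM in V (-1.53, SE 0.22, edgeR adjusted p = 7.1e-05). *RsCYP81F4* was at 5.69 and 6.18 CPM in AV, against 12.6 ± 1.46 CPM in V (-1.09, SE 0.25, edgeR adjusted p = 0.00327). These last 3 genes were lower in AV than in V.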

How the data were processed

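Trimmed reads of stranded mRNA libraries (TruSeq, NovaSeq) were aligned by the authors with TopHat2 (default parameters) against the Nodai radish genome, and the raw counts per gene from HTSeq-count were deposited without normalization (versions, strand setting, and counting mode are not given in the sources used here). Reads that HTSeq-count assigned to no gene, 4.27% to 8.89% of the aligned reads it handled in the V and BV libraries, were left out. Unaligned reads are not part of this share. Depth is 21119531 to 27606212 counts on genes in these libraries.

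Counts were filtered by filterByExpr, normalized by TMM, and fitted by robust glmQLFit and glmQLFTest with 1 mean per group in edgeR 4.0.16 (R 4.3.3). Genes passed at an adjusted p under 0.05 and were called with a log2 fold change of at least 1 in size. AV replicates 2 and 3, near-identical, were averaged to the rounded mean, and the V and BV groups follow the sample titles. Distances and SDs used a prior count of 2 on log2 CPM. The scripts were tested on simulated data. The alternatives were other normalizations and filters, DESeq2 1.42.0, limma-voom (limma 3.58.1), the likelihood ratio test, fits of V and BV only, of all 9 libraries or with a replicate block, other thresholds, and each V and BV library left out.

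GSLs genes were grouped by the study's pathway steps. Per-library values are given for members with a log2 fold change of at least 1 in size (where a step has more than 6, those of smallest adjusted p), the largest rise and fall of each step, and genes the paper's text names; *RsTGG1e*, *RsIPMDH1*, *RsPEN2*, *RsSOT16a*, *RsGSTF10*, *RsCYP83B1*, *RsTGG1b*, and the ratios of homologs were added after their values were seen. Unnamed genes are the 2 with the largest gain and the 2 with the largest loss in mean CPM. The members and lists were chosen with earlier results of these data known. None of the RSG identifiers matched RefSeq.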

Additional observations from a re-analysis of the deposited data

How the results depend on the processing

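The numbers of genes called depended mainly on the fold change asked for. With no minimum fold change 6159 genes were higher and 6189 lower, with a minimum log2 fold change of 2 in size 945 and 1219, and with the glmTreat test against a log2 fold change of 1 in size 1321 and 1592. With each library left out in turn, 3036 to 3258 genes were higher and 3181 to 3581 lower, and 17 to 21 pathway genes were higher and 24 to 32 lower. Genes detected only in V numbered 281 to 384 and only in BV 467 to 570 when a library was left out, which drops a condition and can only raise these numbers, and 44 and 124 with more than 10 counts where present. With a library left out, a setting added after the data were seen, the share of counts in the 100 most abundant genes was 0.560 to 1.65 percentage points higher in V. The share of calls that were higher was 48.5%, and 47.5% to 50.9% under the other normalizations, filters, tests, sets of libraries, and the replicate block.

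In the fit with a replicate block, 3315 genes were higher and 3441 lower, and 22 pathway genes were higher and 30 lower. Deviations of V and BV libraries with the same number from their group means had r = 0.0514, 0.233, and 0.113 across genes (which are not independent replicates). For libraries with different numbers r was -0.192 to 0.146. These values do not settle whether the numbers pair the samples. The labels do not say that a number marks a shared batch, so the numbers were not taken to pair the samples.

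Of the 53 pathway and unnamed genes named with a passing test, 42 passed under every alternative in which they were tested. For *RsSOT18i* these were 16 alternatives, against 17 for the others of the 42. Over 1041 refits of single named genes, 37 no longer passed, 4 came to pass, and 3 turned in sign: *RsMYB29a*, which did not pass, ranged from -0.27 without BV replicate 3 to 0.082 without BV replicate 2, with 0.013 without V replicate 1 and 0.061 without BV replicate 1 (log2 fold change). *RsCYP79A2a* passed with library totals (edgeR adjusted p = 0.0477) and in the likelihood ratio test (0.0112), and *RsSOT18d* did not pass with library totals (0.0592). *RsCYP81F2a* did not pass in limma-voom (adjusted p = 0.0730), nor *RsSOT16a* in the fit of only V and BV (0.0749). The cause of these changes was not tested. Genes near the floor of 3 counts had too few reads for small differences to be detectable at this depth.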
